A study of Mus musculus with 16 samples.

Results

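Perivascular macrophages line the blood vessels of the brain, in the space between the vessel wall and the tissue, and differ from the microglia of the parenchyma in the receptors they carry. Many of those receptors take up material: the mannose receptor binds sugar chains, galactose-type lectins bind terminal galactose and its relatives, a folate receptor binds folate, and the adaptor DAB2 links cargo to clathrin coats. The 8 genes followed here are commonly used to tell such cells from microglia. They are Mrc1, Lyve1, F13a1, Mgl2, Clec10a, Folr2, Cbr2 and Dab2, chosen by gene symbol out of the 24411 genes counted, and each was read in 4 groups of cells.

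The study asked how far macrophages that enter the irradiated brain from transplanted bone marrow become like the microglia that were there before. Wild-type C57BL/6J mice had been irradiated with 950 cGy at 6 weeks of age and given wild-type bone marrow that carried CD45.1, and cells were sorted 9 months later by the description in the methods, where the labels name both 3.5 and 9 months and tie no library to either. From the brain of each of 8 mice, Ly6C/G-negative CD11b+ cells with low CD45.1 (engrafted cells) or low CD45.2 (host microglia) were sorted. Mice 1 to 4 had received LPS, a bacterial endotoxin, at 2.5 mg/kg 12 h before, whereas mice 5 to 8 were not injected. The groups were thus engrafted control, host control, engrafted LPS and host LPS, with 4 libraries in each. All brains had been irradiated. The host microglia had received that dose themselves, whereas the engrafted cells descend from marrow given afterwards, so that irradiation and origin of the cells cannot be told apart, and no microglia of an unirradiated brain enter these comparisons.

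Between 395283 and 1203597 reads per library fell on genes. Levels are given as CPM, read counts scaled to depth in the usual way with the effective library sizes of edgeR's TMM method, and 3 reads, the number that a count of 0 allows, correspond to 2.39 to 8.41 CPM depending on the library. This limit covers counting error only. Genes known to rise after LPS did so in both populations, 10 of 10 in engrafted cells and 8 of 10 in host microglia. Among all genes tested, 10.2% and 7.66% were called higher there. In host microglia Nfkbia and Irf7 rose by a log2 fold change of 0.98 and 0.99 and missed only the 2-fold threshold. Of 6 astrocyte genes, Slc1a3 was tested and was lower in engrafted control cells (9.72 against 206 CPM). No gene of lymphocytes, of mural cells and fibroblasts or of neurons could be tested between the populations, in control or in LPS mice. Of 6 oligodendrocyte genes, 3 were tested in each and none was called. The summed level of 8 mural cell and fibroblast genes was 284 CPM in engrafted cells of mouse 5 and 11.7 CPM in its host cells. In any other library it was at most 50.4 CPM. Neuron genes summed to 183 CPM in the host cells of mouse 5 and to 16.1 CPM in its engrafted cells. Host libraries held more RNA of microglia markers, 7 of 8 of which were lower in engrafted control cells, where 4.73% of all genes were called lower. The summed level of 5 red cell genes was high in both libraries of mouse 4 and of mouse 8, up to 6608 CPM in the engrafted cells of mouse 4. That library was also the shallowest.

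In cells of unchallenged mice, all 8 genes were higher in the engrafted population in every mouse, though Lyve1 was hardly detected (at most 3 reads in a library). Mrc1, F13a1, Mgl2, Cbr2 and Dab2 passed edgeR's filter for low counts, and each was called higher in engrafted cells (more than 2-fold at an adjusted p under 0.05), where 6.25% of all 8042 genes tested were called higher and 4.73% lower. Groups without overlap, as each of these genes showed, were found for 26.6% of all genes. F13a1, Mgl2, Cbr2 and Dab2 had at most 3, 2, 5 and 15 reads in a host control library. They passed the filter only through the engrafted libraries, so that their count says nothing beyond the single values. Their log2 fold changes and that of Mrc1 ran from 4.25 to 5.87. After LPS, Mrc1, F13a1 and Dab2 could be tested between the populations, and all 3 were higher in engrafted cells, where 6.73% of 7843 genes were called higher and 4.34% lower. F13a1 and Mrc1 had at most 5 and 16 reads in a host LPS library, and both passed the filter only through the engrafted libraries. LPS itself moved the genes in different directions. Of 6 tested in engrafted cells, F13a1 and Dab2 rose, Mgl2 and Cbr2 fell, and Mrc1 and Clec10a did not pass the test, in a comparison that called 21.5% of 7609 genes (10.2% higher and 11.3% lower), while in host microglia Dab2 rose. In that comparison of engrafted cells, Mgl2 and Cbr2 had at most 2 and 19 reads in an LPS library. They passed the filter only through the control libraries, so that their falls are single values and not a count. The comparison of populations without LPS and that of LPS in engrafted cells share the 4 engrafted control libraries. RNA was taken from pools of sorted cells, and fewer cells with a transcript cannot be told apart from less of it per cell.

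**Figure D1:**
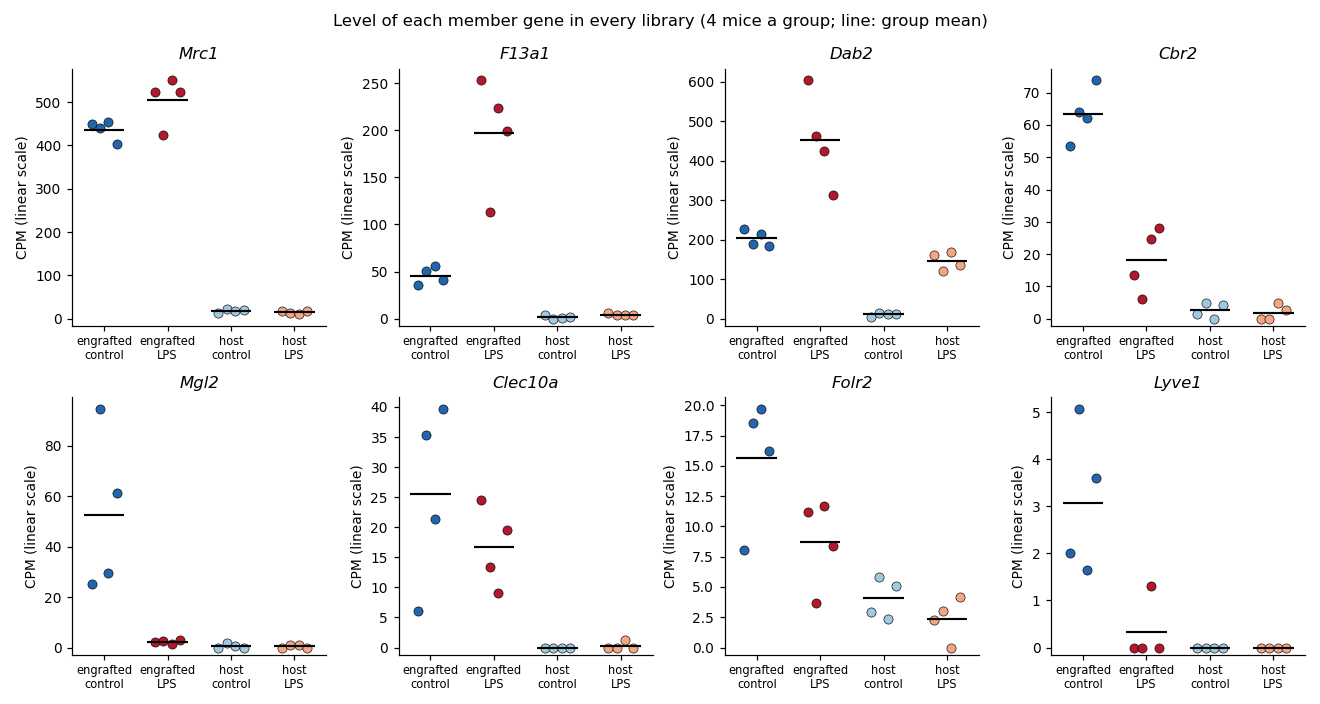
Each panel plots 1 gene, with CPM on a linear axis from 0 and 1 point for each library of the 4 groups (4 mice in a group); the line is the group mean. Engrafted libraries lie above host libraries except for Folr2 after LPS and Lyve1 after LPS, where they overlap, and Dab2 is the gene whose host libraries rise after LPS (mean 147 CPM against 10.6 CPM).

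Mrc1 encodes the mannose receptor CD206, an endocytic receptor of the macrophage surface (NM_008625, chr2:14151041-14253650, plus strand, mm9). Its level in engrafted control cells was 449, 440.0, 454 and 403 CPM in mice 5 to 8, and in host microglia of the same mice it was 13.2, 22.3, 18.3 and 20.4 CPM. After LPS the engrafted cells of mice 1 to 4 held 523, 423, 550.4 and 524 CPM and their host microglia 18.3, 12.96, 9.66 and 16.7 CPM. The populations were therefore far apart in both conditions, and the libraries of LPS and control mice overlapped within each population. Engrafted cells exceeded host microglia by a log2 fold change of 4.58 ± 0.17 (SE, adjusted p = 9.94e-17) without LPS and of 5.15 ± 0.25 (adjusted p = 2.38e-10) after LPS, where 20.6% of all genes had no overlap. LPS itself gave a log2 fold change of 0.17 in engrafted cells (95% interval -0.19 to 0.53, adjusted p = 0.448) and of -0.40 in host microglia (-1.01 to 0.20, adjusted p = 0.290), neither of which passed. The interval was narrower in engrafted cells, where reads were many, than in host microglia, where it extended to about the fold threshold.

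Dab2 encodes an adaptor that recruits cargo receptors to clathrin-coated pits (NM_023118, chr15:6336748-6390709, plus strand, mm9). In engrafted control cells it was at 228, 189, 215 and 184 CPM (mice 5 to 8) and in their host microglia at 4.39, 13.6, 12.0 and 12.3 CPM. After LPS, engrafted cells held 604, 464, 425 and 314 CPM (mice 1 to 4) and host microglia 162, 119.6, 169 and 136 CPM. All 4 groups stood apart from each other without overlap, in the order engrafted LPS, engrafted control, host LPS, host control. Of the 2 members tested for LPS in host microglia, Mrc1 and Dab2, the latter passed. There it rose by a log2 fold change of 3.71 ± 0.24 (SE, adjusted p = 8.35e-11), against 7.66% of all 8238 genes called higher and 10.4% called lower in that comparison, and 35.7% without overlap. In engrafted cells it rose by 1.11 ± 0.20 (adjusted p = 0.000169). Without the engrafted library of mouse 1 the log2 fold change was 0.96 (adjusted p = 0.00135), just under the fold threshold, and the other LPS libraries also lay above every control library. The difference between the responses passed the interaction test, with the engrafted response smaller by 2.61 ± 0.32 on the log2 scale (log2 difference -2.61, adjusted p = 3.99e-06), a test that 4.95% of 8847 genes passed. Engrafted cells exceeded host microglia by a log2 fold change of 4.25 ± 0.19 in control mice (adjusted p = 3.91e-15) and of 1.65 ± 0.22 after LPS (adjusted p = 2.29e-05).

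**Figure D2:**
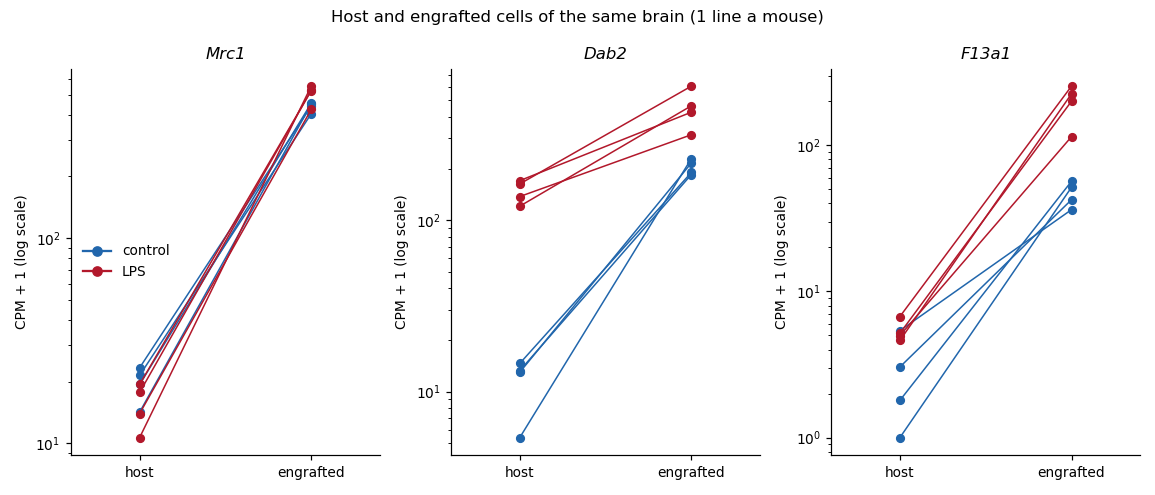
Host and engrafted cells of the same brain are joined by 1 line for each of 8 mice, with CPM + 1 on a log axis, for Mrc1, Dab2 and F13a1. For Dab2 the lines of the LPS mice start at 119.6 to 169 CPM in host microglia and those of control mice at 4.39 to 13.6 CPM, whereas the Mrc1 lines of both treatments share their start and end.

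Both populations of a mouse came from 1 brain, and the ratio can be read mouse by mouse. For Mrc1, the log2 ratio of engrafted over host was 5.09, 4.30, 4.63 and 4.30 in control mice and 4.83, 5.03, 5.83 and 4.97 in LPS mice. For Dab2 it was 3.80, 4.17 and 3.90 in control mice 6 to 8 (mouse 5 had 3 host reads) and 1.90, 1.95, 1.33 and 1.20 in LPS mice. The Dab2 ratios of the LPS mice all lay below those of the control mice, and the Mrc1 ratios of both treatments overlapped.

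F13a1 encodes the A subunit of coagulation factor XIII, a transglutaminase that cross-links fibrin and that macrophages and classical monocytes also make (NM_001166391, chr13:36959047-37142113, minus strand, mm9). Engrafted control cells held 35.3, 50.6, 55.7 and 41.4 CPM and engrafted LPS cells 253, 113, 224 and 199 CPM. Every LPS library lay above every control library, that of mouse 2 being the lowest of the LPS libraries. The rise was 2.09 ± 0.25 on the log2 scale (SE, adjusted p = 1.47e-06), in a comparison that found no overlap for 35% of all genes. Host microglia had 6 reads in all 4 control libraries together and 15 in the LPS libraries, at most 5.73 CPM. The ratio of these reads, corrected for depth, was 2.88 with a counting interval of 1.06 to 9.07, and the two-sided exact permutation test over the 8 libraries gave p = 0.114. Engrafted exceeded host cells by 4.81 ± 0.45 in control mice (adjusted p = 4.1e-09) and by 5.47 ± 0.33 after LPS (adjusted p = 1.58e-09). Whether the F13a1 response differed between populations was not resolved (interaction 0.66, 95% interval -1.29 to 2.61, adjusted p = 0.770).

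Markers of neutrophils were also higher in engrafted cells. Of 9 such genes, 3 were tested in control mice and all 3 were called. They were S100a9 at 237 against 0.399 CPM (log2 fold change 8.53 ± 0.74, adjusted p = 1.07e-09), S100a8 (7.69) and Camp (7.23). They had at most 2, 1 and 1 reads in a host control library and passed the filter only through the engrafted libraries. Of all genes tested there, 6.25% were called higher. The summed level of the 9 genes was 266 to 1240 CPM in engrafted control and 48.8 to 508 CPM in engrafted LPS libraries. It was at most 2.39 CPM in host control and 15.0 CPM in host LPS libraries. Ly6g, the antigen gated out in the sort, had at most 2 reads in any library, and 4 of the 9 genes had no read in host control cells. After LPS 2 of the 9 were tested between the populations, Mmp8 and S100a8, and both were higher in engrafted cells. These also passed the filter only through the engrafted libraries, where 6.73% of all genes were called higher. The part of neutrophil RNA in the levels of the 8 genes was not tested.

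Markers of monocytes changed with LPS in engrafted cells too, in both directions. Of 7 such genes, 4 were tested for LPS in engrafted cells. Ly6c2, Plac8 and Vcan rose, and Ccr2 fell from 155 to 46.2 CPM (-1.78). In that comparison, 10.2% of all genes were called higher and 11.3% lower. Vcan had at most 2 reads in an engrafted control library and passed the filter only through the LPS libraries. The summed level of the 7 genes was 153 to 297 CPM in engrafted control libraries and 743 to 1623 CPM in engrafted LPS libraries. It was at most 34.8 CPM in any host library. Ly6c2, whose product belongs to the antigens gated out in the sort, went from a mean of 30.1 CPM to 716 CPM. None of the 7 markers was limited to 3 reads or fewer in engrafted LPS cells, as 1 of them was in engrafted control cells. The part of monocyte RNA in the levels of F13a1, or of any other of the 8 genes in engrafted cells after LPS, was not tested.

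Mgl2 and Clec10a are neighbours on chromosome 11 and encode the galactose-type lectins CD301b and CD301a, receptors that bind glycans with terminal galactose or N-acetylgalactosamine. Mgl2 also marks a subset of dendritic cells outside the brain. They are close copies of each other, so the sequence decides whether reads can be assigned. Of the 9 coding exons in each GENCODE transcript, 7 pairs counted from the 3′ side had equal length. Over their 697 bases, 1 pair of 152 bases was identical, and the other pairs differed at 1 to 7 bases. The exon before the last coding one is shown for both genes, with the bases at which they differ in capitals (107 bases, 7 differences; Mgl2 chr11:69950172-69950278 and Clec10a chr11:69983662-69983768, plus strand, mm9).
Mgl2: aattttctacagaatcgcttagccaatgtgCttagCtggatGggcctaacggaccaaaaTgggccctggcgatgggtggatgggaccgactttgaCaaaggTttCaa
Clec10a: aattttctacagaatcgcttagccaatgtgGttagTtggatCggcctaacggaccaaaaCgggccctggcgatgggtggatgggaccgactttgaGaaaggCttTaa
Reads that lie wholly within identical stretches, up to 183 bases long in the transcripts, cannot be mapped uniquely, and only unique reads were counted. The 3′ untranslated ends, of 437 and 260 bases, share no run longer than 10 bases, and a protocol primed on the poly(A) tail favours these ends. Reads of the 2 genes in the coding part may still be split unevenly, and their values carry that uncertainty.

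Mgl2 (NM_145137, chr11:69943859-69951044) was at 25.2, 94.4, 29.5 and 61.2 CPM in engrafted control cells of mice 5 to 8, from 25, 56, 18 and 34 reads. After LPS, the engrafted libraries of mice 1 to 4 had 2, 2, 1 and 1 reads, a mean of 2.20 ± 0.641 CPM (SD, n = 4), at the level that a count of 0 allows. The control libraries varied over a wide range, and all of them lay above all LPS libraries. In the test Mgl2 fell by 4.52 ± 0.56 on the log2 scale (adjusted p = 2.67e-06). Taken from the reads alone, the level was 22.9-fold lower after LPS, with a counting interval of 10.2 to 63.4. Host microglia had 3 reads in the control and 2 in the LPS libraries. Engrafted control cells exceeded host control microglia by 5.87 ± 0.61 (log2, adjusted p = 2.86e-08), or 63.6-fold by reads (21.3 to 312). After LPS no fold between the populations is given, because every library stood at 3 reads or fewer.

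Clec10a (NM_010796, chr11:69980125-69984338) was at 6.04, 35.4, 21.3 and 39.6 CPM in engrafted control cells and at 24.6, 13.4, 9.11 and 19.6 CPM after LPS, with 6 to 22 reads in each library. These values overlapped, and the log2 fold change of -0.57 did not pass (95% interval -1.53 to 0.39, adjusted p = 0.341). The interval for Clec10a lies above that for Mgl2, -5.70 to -3.35, which was computed in the same fit; the difference between the 2 genes was not itself tested. No read of Clec10a was found in host control microglia and 1 in host LPS microglia. Its level in engrafted control cells was at least 8.02-fold higher than in host cells, computed against 3 reads per library averaged over the 4 host libraries. With LPS the read ratio was 56.7 (9.68 to 2284.66), and all 4 engrafted libraries lay above all host libraries (two-sided exact permutation p = 0.0286, which is the lowest value possible for 4 against 4).

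Markers of dendritic cells were few in these libraries. The summed level of 7 of them was 22.2 to 41.4 CPM in engrafted control libraries and 14.5 to 31.7 CPM after LPS, and at most 9.17 CPM in host libraries. Clec9a, a marker of cross-presenting dendritic cells, averaged 7.77 CPM in engrafted control cells and had no read after LPS. Cd209a went from 9.68 to 1.80 CPM, whereas Ccr7 went the other way, from 6.43 to 12.2 CPM. The remaining genes were low in both groups: Flt3 (2.86 and 3.26 CPM), Dpp4 (2.49 and 2.01), Zbtb46 (4.43 and 1.84) and Xcr1 (0.954 and 0). No gene of this list passed the filter, and its part in the values of Mgl2 was not tested.

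Cbr2 encodes a carbonyl reductase of mitochondria (NM_007621, chr11:120590799-120593335, minus strand, mm9). Engrafted control cells held 53.4, 64.1, 62.3 and 73.8 CPM, and after LPS the values were 13.4, 6.10, 24.7 and 28.0 CPM. All control libraries lay above all LPS libraries. Cbr2 fell by 1.95 ± 0.33 on the log2 scale (SE, adjusted p = 8.59e-05). Host microglia had 10 reads in the control and 6 in the LPS libraries, at most 4.86 CPM. The excess of engrafted over host cells was 4.60 ± 0.38 in control mice (log2, adjusted p = 5.24e-10). After LPS, where Cbr2 missed the filter, the read ratio was 9.24 (3.94 to 26.5) with no overlap (two-sided exact permutation test, p = 0.0286).

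**Figure D3:**
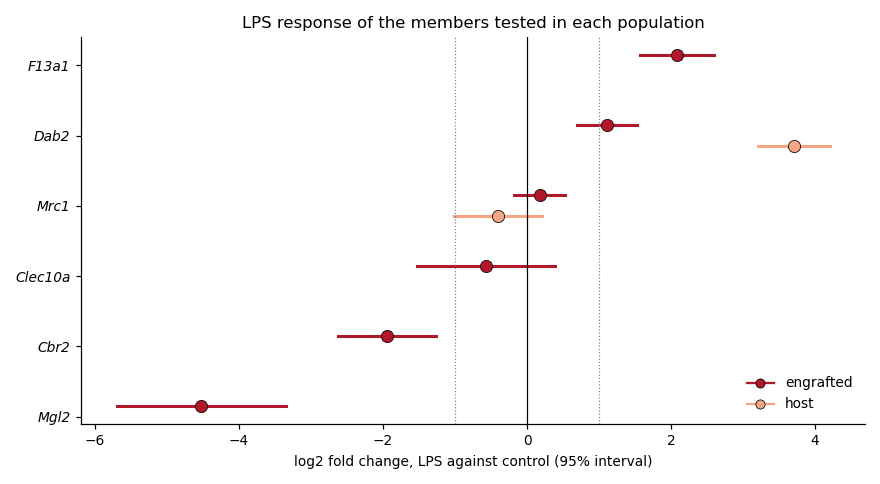
Points give the log2 fold change of LPS against control and bars the 95% interval, in engrafted cells (6 genes tested) and in host microglia (2 genes tested); dotted lines mark the fold threshold. F13a1 (2.09) and Dab2 (1.11) lie to the right and Cbr2 (-1.95) and Mgl2 (-4.52) to the left in engrafted cells, and Dab2 lies farther right in host microglia (3.71).

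Folr2 and Lyve1 were sparse. Folr2, the folate receptor beta (NM_001303239, chr7:108988502-109005704, minus strand, mm9), was at 8.06, 18.5, 19.7 and 16.2 CPM in engrafted control cells and at 2.93, 5.83, 2.39 and 5.11 CPM in host control microglia. The lowest engrafted library thus stood above the highest host library. After LPS, the engrafted libraries gave 11.2, 3.66, 11.7 and 8.41 CPM and the host libraries 2.29, 2.99, 0 and 4.17 CPM, and the populations overlapped. Folr2 missed the filter throughout, and the read ratios of engrafted over host cells were 3.58 (1.96 to 6.86) without LPS and 3.77 (1.65 to 9.66) with LPS, at two-sided exact permutation p = 0.0286 and p = 0.0571. The effect of LPS on Folr2 was not resolved in either population, the read ratio being 0.606 (0.352 to 1.02) in engrafted cells and 0.577 (0.214 to 1.43) in host microglia.

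Lyve1, a hyaluronan receptor of lymphatic endothelium and of some vessel-associated macrophages (NM_053247, chr7:117994121-118006467, minus strand, mm9), had 2, 3, 1 and 2 reads in the engrafted control libraries, 1 read in 1 of the 4 engrafted LPS libraries and no read in host microglia. Every library stood at or under 3 reads, and no fold is given. All engrafted control libraries had a read and no host control library did (two-sided exact permutation p = 0.0286), and without the filter for low counts Lyve1 passed edgeR's test there (adjusted p = 0.0221). Endothelial genes were low as well, 8 of them summing to 6.55 to 32.6 CPM over the 16 libraries.

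The regions upstream of the members that passed the LPS test in engrafted cells are shown, because 2 rose and 2 fell. The windows end at the transcript start of the counted model or, where GENCODE places an exon nearer, before that exon, and they come from RefSeq promoters that matched mm9 exactly. Capitals mark GGAA or its complement TTCC, the core that PU.1 and other ETS factors recognise, a motif that was chosen after the results were seen.
F13a1, chr13:37142114-37142363, minus strand: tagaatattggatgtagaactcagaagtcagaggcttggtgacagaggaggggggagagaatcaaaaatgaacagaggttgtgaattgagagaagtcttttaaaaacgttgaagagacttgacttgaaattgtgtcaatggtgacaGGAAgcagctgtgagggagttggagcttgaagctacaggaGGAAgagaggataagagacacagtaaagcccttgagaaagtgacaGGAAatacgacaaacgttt
Dab2, chr15:6336498-6336597, plus strand: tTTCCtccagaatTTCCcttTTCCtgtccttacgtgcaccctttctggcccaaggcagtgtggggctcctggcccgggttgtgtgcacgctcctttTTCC
Mgl2, chr11:69943609-69943830, plus strand: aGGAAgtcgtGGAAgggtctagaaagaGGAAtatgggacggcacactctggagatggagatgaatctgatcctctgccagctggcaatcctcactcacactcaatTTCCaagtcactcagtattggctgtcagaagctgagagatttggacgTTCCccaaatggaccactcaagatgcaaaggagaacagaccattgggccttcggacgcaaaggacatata
Cbr2, chr11:120593429-120593585, minus strand: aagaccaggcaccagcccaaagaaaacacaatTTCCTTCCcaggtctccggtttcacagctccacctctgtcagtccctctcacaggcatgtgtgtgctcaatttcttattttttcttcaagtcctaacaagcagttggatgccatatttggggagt
The windows held 3, 4, 5 and 2 such cores. The core is common: it was found in 93.4% of all 32851 RefSeq promoters over 250 bases, in 67.6% over 100 bases, in 91.2% over 222 bases and in 83.0% over 157 bases, counted from 250 bases upstream. Longer motifs were sought on both strands in the 250 bases before the start for 6 of the 8 genes. TGCTGAC, a site of MAF factors, GAGGAAGT, a PU.1 site, and a palindromic site of the STAT6 type were in none of these windows, and in 3.81, 2.44 and 5.85% of all promoters. The PU.1 motif contains the core GGAA.

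Other genes known from perivascular and meningeal macrophages were set beside the 8. Of 18 such genes, 11 were tested between engrafted and host control cells, of which 7 were higher and none lower. Their median log2 fold change was 3.45 against 0.02 for all genes tested, of which 6.25% were called higher and 4.73% lower. Some of the 11 too, such as Cd36, passed the filter through the engrafted libraries alone. Pf4, a chemokine, was at 364 CPM against 4.88 CPM (6.18 ± 0.22, adjusted p = 6.12e-17), Ms4a7, a membrane protein of macrophages, at 539 against 8.41 CPM (6.01 ± 0.18, adjusted p = 3.62e-18) and Cd36, a scavenger receptor, at 55.7 against 0.940 CPM (5.64 ± 0.49, adjusted p = 1.35e-09). Slc40a1, the iron exporter ferroportin, and Gas6, a ligand of phagocytic receptors, did not pass (-0.29 and -0.30). After LPS, 7 of 11 tested genes were higher in engrafted cells and 1, Gas6, was lower. Of all genes tested there, 6.73% were called higher and 4.34% lower. Cd163, Siglec1, Pf4, Ms4a7 and Cd38 had at most 3, 5, 5, 8 and 9 reads in a host LPS library. They passed the filter through the engrafted libraries, so that their calls are single values and not a count.

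Their response to LPS was mixed, as that of the 8 genes was. In engrafted cells 12 of the 18 were tested, of which 3 rose and 6 fell, with a median of -0.65. Of all genes tested there, 10.2% were called higher and 11.3% lower. Cd38, an enzyme that consumes NAD, rose from 39.0 to 351 CPM (3.15 ± 0.21, adjusted p = 6.04e-10), and Cd163, the haemoglobin scavenger receptor, rose by 2.04 ± 0.36 (adjusted p = 0.000134). Cd36 fell from 55.7 to 2.17 CPM (-4.65 ± 0.49, adjusted p = 3.51e-07), Gas6 from 205 to 29.7 CPM (-2.93 ± 0.31, adjusted p = 3.96e-07) and Slc40a1 from 92.1 to 11.9 CPM (-2.85 ± 0.30, adjusted p = 3.01e-07). Cd36 had at most 3 reads in an engrafted LPS library and passed the filter of that comparison through the control libraries. In host microglia 5 were tested and 3 fell, namely Slc40a1 (-2.12), Gas6 (-1.71) and the transcription factor gene Maf (-1.35). Of all genes tested in host microglia, 10.4% were called lower. Of 13 tested for a difference in response, 1 passed, Cd36 (-5.38, adjusted p = 0.00919), in a test that 4.95% of 8847 genes passed. Host microglia had at most 2 reads of Cd36 in a control library and 4 in an LPS library. Cd36 thus passed the filter of the interaction only through the engrafted control libraries. Its interaction mainly restates the fall in engrafted cells, because the host response rests on these few reads.

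**Figure D4:**
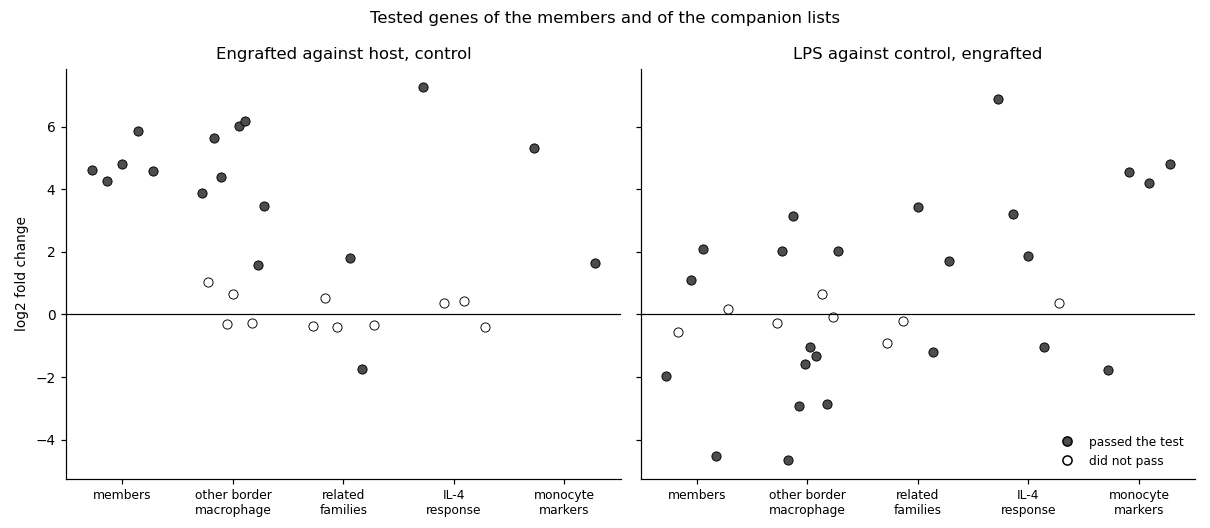
Each point is 1 tested gene of a list, with its log2 fold change between engrafted and host control cells (left) and between LPS and control in engrafted cells (right); filled points passed the test. On the left the 5 tested members all lie above 4, and on the right members and other border macrophage genes scatter on both sides of 0 while 3 of 4 monocyte markers lie above 4.

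Relatives and partners of the members were followed as well. Of 17 such genes, 6 were tested between engrafted and host control cells. Cd44, a hyaluronan receptor like Lyve1, was higher (1.81). Numb, an endocytic adaptor with the same kind of phosphotyrosine-binding domain as Dab2, was lower (-1.73). That comparison called 6.25% of all genes higher and 4.73% lower. With LPS in engrafted cells, 5 were tested, where 10.2% of all genes were called higher and 11.3% lower. Cd44 rose from 18.2 to 204 CPM (3.44 ± 0.25, adjusted p = 1.97e-09). Tgm2, a transglutaminase like F13a1, rose from 112 to 373 CPM (1.71 ± 0.20, adjusted p = 1.01e-06), while Numb fell (-1.19). Numb also fell in host microglia, from 172 to 44.0 CPM (-1.99 ± 0.20, adjusted p = 5.86e-08), in the cells in which Dab2 rose. Cd44 rose in host microglia by 1.60 ± 0.36 (adjusted p = 0.00113), and its response was larger in engrafted cells (interaction 1.84, adjusted p = 0.0194). Cbr1, a relative of Cbr2, fell in host microglia (-1.43, adjusted p = 6.13e-06). Tgm2 went from 145 to 280 CPM in host microglia (0.94, adjusted p = 0.000262), just under the fold threshold. Its responses in the 2 populations did not differ in the interaction test (0.76, adjusted p = 0.117). For LPS in host microglia 6 of the 17 were tested, where 7.66% of all genes were called higher and 10.4% lower.

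For 6 members that passed the filter over all 16 libraries, the genes with the most similar profile were sought among 6781 genes, by the root mean square difference of centred log2 CPM over the 16 libraries. Nearest to Mrc1 were Serpinb8 (0.39) and Tlr8 (0.45), where the median gene was at 2.41. Of the 6, Dab2 had the closest partner, Lilrb4a (0.35), an inhibitory receptor of myeloid cells, which went from 48.7 CPM in host control to 561 CPM in host LPS microglia and from 693 to 1176 CPM in engrafted cells. Ifi207 followed (0.42). Nearest to F13a1 were Rara (0.55), the retinoic acid receptor alpha, and Cd38 (0.56). For Clec10a they were Lyz2 (0.44), the lysozyme of myeloid cells, and Adam33 (0.58), for Cbr2 Arhgap15 (0.63) and Cyp4f18 (0.66), and for Mgl2 Sorbs3 (0.75) and Wwp1 (0.79). These distances share libraries and depth and are given as a description.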

How the data were processed

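The values deposited by the authors are raw read counts for each gene in 16 libraries, 4 in each of 4 groups, made by a derivation of MARS-seq from about 10000 sorted cells. Per the labels and the methods, reads were mapped with hisat to NCBI37 (mm9), uniquely mapped reads were kept, and HOMER counted them over exons, with 1 transcript model for each gene and strand taken into account. No removal of PCR duplicates is named. From these counts, differences were tested with edgeR 4.0.16 in R 4.3.3. Low counts were filtered with filterByExpr (10 reads, total of 15), scaling was by TMM, and the quasi-likelihood test was adjusted by Benjamini-Hochberg over all genes tested. Calls required more than 2-fold in either direction and an adjusted p under 0.05. Standard errors were derived from the F statistic of each fold change. Genes that missed the filter were given as ratios of reads with exact 95% counting intervals, and tested by exact permutation, two-sided, of CPM over libraries.

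The members, lists and tests were chosen with earlier results of these data known. All 8 members are named in every comparison. From the lists of other border macrophage genes, relatives and IL-4 response, up to 4 called genes are named per comparison, those with the largest absolute fold change whose mean reached 20 CPM in 1 group. For each tested member the 2 nearest profiles are named. Other genes are named for their values. Lists of other cell types are given mainly by counts and summed levels. Besides, 1 gene was left out of the analysis and is not reported here.

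Libraries of mice of the same number come from the same animal. After removing group means, the correlation between both libraries of a mouse was 0.148, 0.0168, 0.209, 0.127, 0.0283, -0.0324, 0.0474 and 0.0828 for mice 1 to 8. The study's methods do not mention a mouse term, and the fits reported here have none. Alternatives were the mouse as a replicate block, other scaling and filters, DESeq2 1.42.0, limma-voom 3.58.1, a joint fit and leaving out each library. Tests were checked on simulated counts with 200 changed genes.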

Additional observations from a re-analysis of the deposited data

Results flagged for a closer look

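The response of Dab2 to LPS differed between the populations in the interaction test of edgeR with Benjamini-Hochberg adjustment (engrafted minus host -2.61 on the log2 scale, adjusted p = 3.99e-06). Both populations moved in the same direction, 4 of 4 LPS libraries lying above all control libraries in each.

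Of 29 groups of 4 libraries checked, 2 held a library apart from the rest. Lyve1 in the engrafted LPS library of mouse 3 (1.30 CPM) and Clec10a in the host LPS library of mouse 3 (1.21 CPM) each rest on 1 read, where the other libraries of the group had none. The rule flags any group in which a single read fell in 1 library, so these 2 flags carry no weight. Its nominal rate of about 1 in 20 groups does not hold for such sparse counts.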

How the results depend on the processing

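The number of the 8 genes called depended on the filter, since several have few reads. Without a filter for low counts it went from 5 to 8 for engrafted against host control cells and from 3 to 6 after LPS (all genes: 1454 and 1352 called), and Clec10a, Folr2 and Lyve1 passed between the control populations (adjusted p = 2.09e-16, 0.00389 and 0.0221). With at least 10 reads required in every library it was 0 for engrafted against host control cells, where no member was left to test, 1 after LPS, 2 for LPS in engrafted cells, 0 for LPS in host microglia and 0 for the interaction (all genes: 402, 381, 816, 871 and 251). With all 16 libraries in one fit, 5 members were called between the populations after LPS, Clec10a and Cbr2 being added. Leaving out each library gave 5 to 7 members for engrafted against host control cells, 3 to 5 after LPS (5 without the host library of mouse 3 or of mouse 4), 3 to 4 for LPS in engrafted cells, 1 to 1 for LPS in host microglia and 1 to 1 for the interaction. Dab2 in engrafted cells was the member that missed a threshold, without the LPS library of mouse 1 (0.96). No member result that was tested in the main fit changed direction under any alternative run. The interaction of Folr2, untested in the main fit, took either sign. It was -0.41 without the host LPS library of mouse 3 and 0.30 without that of mouse 4. With the mouse as a replicate block, 5, 3 and 1 members were called for engrafted against host control cells, after LPS and for the interaction (all genes 902, 882 and 477), and no member's call changed. No paired analysis was possible for LPS within a population, because its groups share no mice. Depth limits Lyve1, Folr2 and the host levels of Mgl2, Clec10a, F13a1 and Cbr2, all at few reads.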

Other observations

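Mrc1, Mgl2 and Clec10a are also known from macrophages treated with IL-4, and 10 further genes known from such cells were followed. Between engrafted and host control cells 4 were tested and 1 was higher, Chil3, a chitinase-like lectin, with 22.1 CPM against no read in host microglia. Chil3 thus passed the filter only through the engrafted libraries, in a comparison that called 6.25% of all genes higher. With LPS in engrafted cells, 5 were tested, of which 3 rose and 1 fell, where 10.2% of all genes were called higher and 11.3% lower. Arg1 had at most 4 reads in an engrafted control library and passed the filter only through the LPS libraries. Arg1, which breaks down arginine, rose from 3.54 to 423 CPM (log2 fold change 6.89 ± 0.34, adjusted p = 1.54e-11), Chil3 from 22.1 to 209.7 CPM (3.20 ± 0.29, adjusted p = 5.52e-08) and Il4ra, the receptor chain for IL-4, from 267 to 1003 CPM (1.87 ± 0.18, adjusted p = 1.11e-07). Klf4 fell by 1.03 ± 0.21 (adjusted p = 0.000641). In the same comparison Mgl2 fell and Mrc1 and Clec10a did not pass. In host microglia 3 were tested, and Il4ra rose by 1.85 ± 0.14 (adjusted p = 1.37e-09), where 7.66% of all genes were called higher. After LPS, Chil3, Arg1 and Ccl22 were higher in engrafted than in host cells, where 6.73% of all genes were called higher. Chil3 and Arg1 had at most 1 and 11 reads in a host LPS library. The Arg1 response differed between the populations (interaction 4.35, adjusted p = 0.0305).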
